A study of Oryza sativa with 8 samples.

Results

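The 10 rice genes described here encode type-A cytokinin response regulators, and they were found by their identifiers among the 55797 genes listed at a single locus in every library. They are RR1 to RR7 and RR9 to RR11, with the names given by the list of identifiers that defines the set. RefSeq has a gene under 9 of these 10 names (all but RR3), and each of the 9 lies on the same chromosome as the identifier in the files. Transcript levels come from RNA sequencing of the rice cultivar Nipponbare, the wild-type variety behind the rice reference genome. Seedlings grown in liquid culture for 2 weeks were either exposed to 150 mmol NaCl (the labels give no volume) or kept in normal medium as control plants (CK), and both were collected after 24 hours. The groups are salt-treated roots, control roots, salt-treated leaves and control leaves, with 2 libraries each, named by the titles. The tissue field reads shoot for the root libraries and seedling for the leaf libraries, so it goes against the titles. The labels call the tissues biologically replicated but do not say whether plants were pooled.

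Cytokinins are plant hormones perceived by membrane histidine kinases, which pass phosphate through histidine phosphotransfer proteins to response regulators in the nucleus. Type-B regulators are transcription factors that switch on cytokinin-responsive genes, among them the type-A regulators. Type-A regulators consist mainly of the phosphate-receiving domain and lack the DNA-binding part, and they dampen the same pathway, so their transcripts serve widely as a readout of cytokinin signalling. In roots, cytokinin restrains growth of the meristem and the formation of new roots, while in leaves it promotes cell division and delays senescence.

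Between 29122 and 30075 genes were above 0 FPKM in each library. FPKM, the unit of all levels below, scales fragment counts by transcript length and by library size, so levels can be set side by side between genes. The tissue names of the titles were checked with marker identifiers. The sum over 9 photosynthesis identifiers was 85.3 to 461 FPKM in root libraries and 39766 to 45287 FPKM in leaf libraries, and that over 5 root uptake identifiers was at least 1072 FPKM in root libraries and at most 13.4 FPKM in leaf libraries. The uptake sum was lower with salt, at 1072 and 1074 FPKM in salt-treated roots against 2352 and 2637 FPKM in control roots, and at 5.57 and 6.01 FPKM in salt-treated leaves against 12.3 and 13.4 FPKM in control leaves. All 5 uptake identifiers were above 0 in every root library, and also in every leaf library but leaf control replicate 1. Their presence alone thus does not tell the tissues apart. Control root replicate 1 held the 461 FPKM, against 85.3 to 122 FPKM in the other root libraries. The sum over 6 salt-responsive identifiers was 1633 and 2149 FPKM in salt-treated roots against 388 and 396 FPKM in control roots, and 4833 and 6064 FPKM in salt-treated leaves against 670.3 and 786 FPKM in control leaves.

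The family was transcribed most in salt-treated roots. Its summed level was 300.1 and 301 FPKM in salt-treated roots, against 139 and 143 FPKM in control roots. In leaves the sum was 117 and 135 FPKM with salt, against 106 and 90.6 FPKM in controls. The ratio of the group means was 2.14 in roots and 1.28 in leaves, and in both tissues the salt-treated libraries lay above both controls. The uptake sum given above moved the other way in the same libraries, and its part in the changes of the members was not tested. A sum over whole organs cannot tell more transcript per cell from more cells of a transcribing type, and this holds for every level below.

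**Figure D1:**
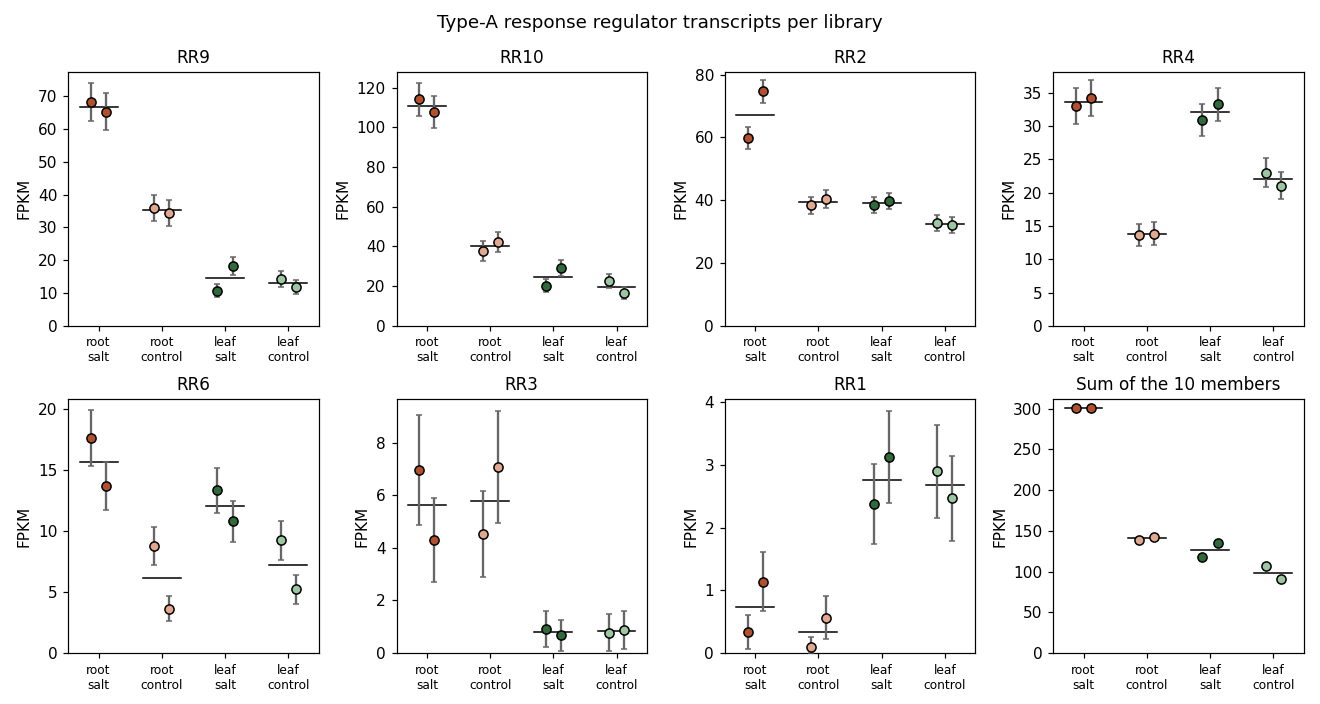
Level in FPKM (vertical axis, from 0) of 7 members and of the sum of all 10, by group (root salt, root control, leaf salt, leaf control). Points are libraries, horizontal bars group means, and vertical bars the deposited confidence bounds (none for the sum). The summed level is 300.1 and 301 FPKM in the salt-treated root libraries, above all other libraries.

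RR9 and RR10 are a pair of paralogues at the ends of chromosomes 11 and 12, which share a duplicated segment, and loss of both is known to make rice more tolerant of salt. RR9 (LOC_Os11g04720) spans chromosome 11, 2013371 to 2015405, and RR10 (LOC_Os12g04500) chromosome 12, 1915856 to 1917598, in the coordinates of the deposited files, whose genome build is not given in the sources used here. Both rose in salt-treated roots. RR10 had 114 and 108 FPKM in salt-treated roots, against 37.7 and 42.3 FPKM in control roots. RR9 had 68.3 and 65.4 FPKM in salt-treated roots, against 36 and 34.4 FPKM in control roots. For both genes the groups were far apart relative to the gap between replicates. The log2 fold change, taken on log2(FPKM + 1) as for all changes below, was 1.45 ± 0.200 for RR10 (SE, limma adjusted p = 0.00168) and 0.91 ± 0.221 for RR9 (SE, limma adjusted p = 0.0160).

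In leaves the pair was lower than in roots, and its salt change did not pass the test. RR10 had 20.2 and 29.3 FPKM in salt-treated leaves, against 22.6 and 16.5 FPKM in control leaves. RR9 had 10.7 and 18.3 FPKM in salt-treated leaves, against 14.2 and 11.8 FPKM in control leaves. For both genes the 2 groups overlapped, with leaf salt replicate 2 highest. The log2 differences were 0.32 for RR10 (95% interval -0.16 to 0.80, limma adjusted p = 0.271) and 0.11 for RR9 (95% interval -0.42 to 0.63, limma adjusted p = 0.771).

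The change of RR10 was larger in roots than in leaves by 1.13 on the log2 scale (SE 0.283, limma adjusted p = 0.0234 for the difference). Left out in turn, leaf control replicate 1, leaf salt replicate 1, root control replicate 1, root salt replicate 1 and root salt replicate 2 each took this p past the threshold of 0.05, to 0.0687, 0.0575, 0.0649, 0.0714 and 0.0579, with the difference between 0.87 and 1.39 over all 8 omissions. Without a filter on low values it was 0.0558. For RR9 the difference was 0.80 (95% interval 0.06 to 1.54, limma adjusted p = 0.0941), and without leaf salt replicate 2 it was 1.16 (limma adjusted p = 0.0108). The rise of RR9 in roots missed the threshold without root control replicate 1 or 2 or without root salt replicate 1 or 2 (limma adjusted p = 0.0525, 0.0638, 0.0779 and 0.0596), at log2 changes of 0.87 to 0.94.

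RR10 stood at 1.67 and 1.65 times RR9 in salt-treated roots, against 1.04 and 1.23 times in control roots. The ratio was 1.89 and 1.60 in salt-treated leaves, against 1.59 and 1.40 in control leaves. The root groups did not overlap and the leaf groups were separated only narrowly. The ratio is given as a description with no test, and an exact permutation test of 2 libraries against 2 could not go below p = 0.333. Since reads from near-identical copies may be assigned to either gene, the 2 levels were also added. The sum rose by 1.23 ± 0.206 in roots (SE, limma adjusted p = 0.00361) and was 0.24 ± 0.206 higher in leaves (SE, limma adjusted p = 0.419), and the difference between the tissues was 0.99 ± 0.291 (SE, limma adjusted p = 0.0405).

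**Figure D2:**
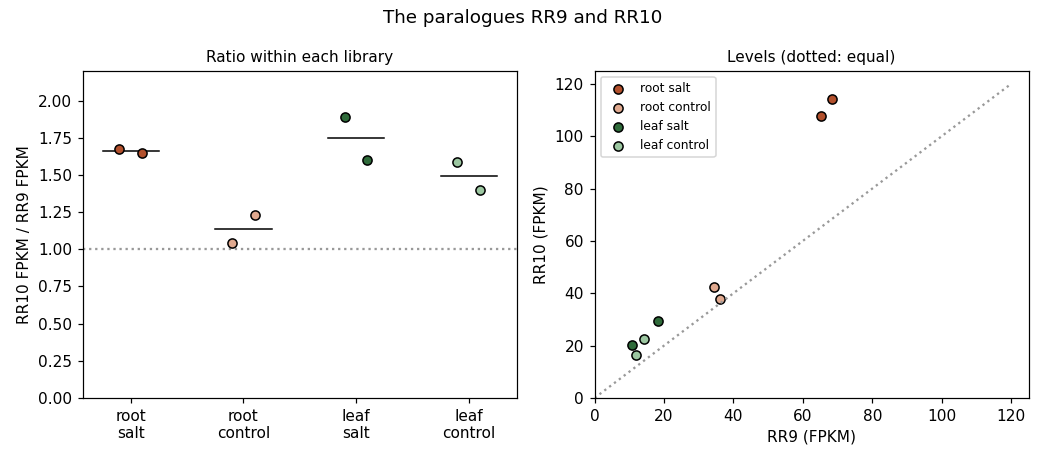
Left, RR10 FPKM divided by RR9 FPKM in each library (vertical axis) by group, with group means as bars; right, RR10 against RR9 in FPKM, with a dotted line of equality. The ratio is 1.67 and 1.65 in salt-treated roots, above the 1.04 and 1.23 of control roots, and all 8 libraries lie above equality.

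RR4 (LOC_Os01g72330; chromosome 1, 41948952 to 41952388) passed the test in both tissues, and its SE was the smallest of the 7 members tested in the model over all 4 groups. It had 32.9 and 34.2 FPKM in salt-treated roots, against 13.6 and 13.8 FPKM in control roots. In leaves it had 30.9 and 33.2 FPKM with salt, against 23 and 21.1 FPKM in controls. Neither pair of groups overlapped, and the salt-treated libraries of the 2 tissues overlapped each other. The rise was 1.23 ± 0.0836 in roots (SE, limma adjusted p = 0.000150) and 0.52 ± 0.0836 in leaves (SE, limma adjusted p = 0.00373). The change was larger in roots by 0.71 ± 0.118 (SE, limma adjusted p = 0.00573 for the difference).

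RR2 (LOC_Os02g35180; chromosome 2, 21128620 to 21131370) is known as a gene that the homeobox factor WOX11 represses during crown root growth in rice. It had 59.9 and 74.6 FPKM in salt-treated roots, against 38.3 and 40.5 FPKM in control roots, and its log2 rise was 0.75 ± 0.111 (SE, limma adjusted p = 0.00228). In leaves it had 38.5 and 39.7 FPKM with salt, against 32.6 and 32.1 FPKM in controls. The leaf groups did not overlap, but the log2 difference of 0.26 had a 95% interval of -0.00178 to 0.53 and missed the threshold (limma adjusted p = 0.116). It passed in a model of the leaf libraries alone (limma adjusted p = 0.0326) and without root salt replicate 1 or 2 (limma adjusted p = 0.0396 and 0.0397). The difference between the tissues was 0.48 ± 0.158 (SE, limma adjusted p = 0.0550), and it was 0.64 without root salt replicate 1 (limma adjusted p = 0.0150) and 0.46 with 5 added before the logarithm (limma adjusted p = 0.0482).

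RR6 (LOC_Os04g57720; chromosome 4, 34375978 to 34377357), whose overproduction is known to give dwarf rice plants with poor roots, had the largest SE of the members that rose in the model over all 4 groups. It had 17.7 and 13.7 FPKM in salt-treated roots, against 8.77 and 3.63 FPKM in control roots. In leaves it had 13.3 and 10.8 FPKM with salt, against 9.25 and 5.23 FPKM in controls. Salt-treated libraries lay above both controls in each tissue. The root rise was 1.30 ± 0.382 (SE, limma adjusted p = 0.0317), and the leaf difference of 0.70 ± 0.382 missed the threshold (SE, limma adjusted p = 0.209). The root call was lost with libraries scaled to their 75th percentile or quantile-normalized (limma adjusted p = 0.0534 and 0.0644), without a filter on low values or in a model of the root libraries alone (limma adjusted p = 0.0778 and 0.103), and without root control replicate 2, root salt replicate 1, root salt replicate 2, leaf salt replicate 1 or leaf salt replicate 2 (limma adjusted p = 0.120, 0.150, 0.0725, 0.0545 and 0.0545). The log2 change ran from 0.76 without root control replicate 2 to 1.84 without root control replicate 1.

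RR3 (LOC_Os02g58350; chromosome 2, 35689247 to 35690390) was mainly a root transcript that gave no call with salt. It had 6.96 and 4.31 FPKM in salt-treated roots, against 4.53 and 7.08 FPKM in control roots. In leaves it had 0.902 and 0.669 FPKM with salt, against 0.778 and 0.883 FPKM in controls. Salt and control libraries overlapped in both tissues, and the log2 differences were -0.04 in roots (95% interval -0.64 to 0.56) and -0.04 in leaves (95% interval -0.64 to 0.56). Both intervals include a difference of the size measured for RR2 in leaves.

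RR1 (LOC_Os04g36070; chromosome 4, 22023832 to 22027680), known as a target that the factor CRL5 activates when crown roots start to form, was a low leaf transcript in these samples. In roots it had 0.336 and 1.14 FPKM with salt, against 0.101 and 0.566 FPKM in controls. In leaves it had 2.38 and 3.12 FPKM with salt, against 2.90 and 2.47 FPKM in controls. The deposited lower bound of control root replicate 1 was 0. Groups overlapped in both tissues, and the log2 differences were 0.36 in roots (95% interval -0.29 to 1.02, limma adjusted p = 0.328) and 0.02 in leaves (95% interval -0.63 to 0.67, limma adjusted p = 0.983).

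The other 3 members stood at or near 0 and did not reach 1 FPKM in any library, so they were not tested. RR11 (LOC_Os02g42060; chromosome 2, 25286937 to 25287918) was listed at 0 in both salt-treated root libraries, against 0 and 0.276 FPKM in control roots. In leaves it was listed at 0.441 and 0 FPKM with salt, against 0.879 and 0.518 FPKM in controls. Every lower bound deposited for RR11 was 0. RR7 (LOC_Os07g26720; chromosome 7, 15440889 to 15442180) was listed at 0.213 FPKM in leaf control replicate 1, with a lower bound of 0, and at 0 in the other 7 libraries. RR5 (LOC_Os04g44280; chromosome 4, 26227217 to 26228435) was listed at 0 in all 8.

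In roots, then, 5 of the 7 members tested rose, none fell, and 2 gave no call, beside 29.1% of all 23776 tested genes that rose and 14.4% that fell. The median log2 change was 0.91 over the 7 members and 0.13 over all tested genes. In leaves 1 of 7 rose (RR4), none fell and 6 gave no call, beside 14.8% of all tested genes that rose and 18.9% that fell, and the medians were 0.26 and -0.05. The difference between root and leaf changes passed the test towards root in 2 of 7 (RR4 and RR10) and towards leaf in none, beside 23.1% and 9.71% of all tested genes, and its median was 0.60 over the members and 0.19 over all genes. Without root control replicate 2, root salt replicate 1 or root salt replicate 2, 3 members rose in roots, and without either root salt library 2 rose in leaves. The difference passed in 1 member without leaf control replicate 1, leaf salt replicate 1, root control replicate 1 or root salt replicate 2. The members tested passed a filter on low values that could also let a gene in through the group where it is high. Under scaling to the 75th percentile, which brought the median root change of all genes to -0.01, the root rises of RR2, RR4, RR9 and RR10 were 0.56, 1.05, 0.72 and 1.26 and still passed the threshold, and that of RR6 did not. The excess of rises among all genes in roots depended on the scaling: 20.4% rose and 19.8% fell under 75th percentile scaling, and 19.8% rose and 22.1% fell under quantile normalization. For the difference between tissues the shares were 16.7% towards root and 14% towards leaf under 75th percentile scaling (median 0.02), and 15.2% and 16.2% under quantile normalization (median -0.05). Under both, 4 members rose in roots, 1 in leaves, and 2 passed for the difference.

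**Figure D3:**
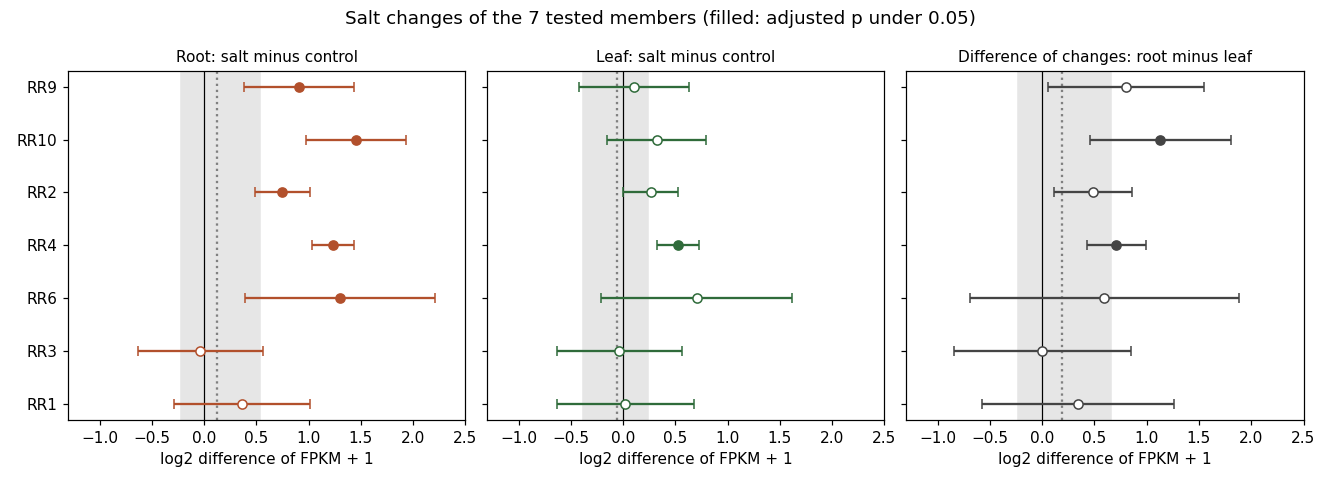
Log2 difference of FPKM + 1 (horizontal axis) of the 7 tested members for salt against control in root, salt against control in leaf, and the difference of these changes, root minus leaf. Points are limma estimates with 95% intervals, filled where the adjusted p is under 0.05; the grey band is the middle 50% of all tested genes and the dotted line their median. Filled points number 5 in root, 1 in leaf and 2 for the difference.

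Photosynthesis transcripts were more abundant in control root replicate 1, and the root changes were therefore read against each control root. Salt minus control was 1.57 between root libraries numbered 1 and 1.33 between those numbered 2 for RR10, and 0.90 and 0.91 for RR9. It was 1.21 and 1.25 for RR4, 0.63 and 0.87 for RR2, and 0.94 and 1.66 for RR6. For each of these 5 genes both salt-treated root libraries lay above both control roots, so any pairing had to give 2 rises. The part of the photosynthesis transcripts of control root replicate 1 in these changes was not tested. The files of both root libraries numbered 1, and of replicate 2 of the salt-treated leaves, list 185 entries on unplaced sequence that the other files lack, all at 0 FPKM. With this feature of the files as a term in the model the number of members called was again 5 in roots and 1 in leaves. In leaf, where replicate 2 is the single library with these entries, salt minus the control mean was -0.26 and 0.47 for RR9 and 0.06 and 0.58 for RR10 in replicates 1 and 2.

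Without salt, members differed in the tissue where they were higher. RR9, RR10 and RR3 were higher in control roots than in control leaves, RR4 and RR1 were lower, and RR2 and RR6 gave no call, beside 39.1% of all tested genes higher and 28.3% lower in root. RR3 was under 1 FPKM in every leaf library, and RR1 in every root library but root salt replicate 2. Both thus passed the filter on low values through the tissue where they are high, so their tissue tests are not independent of it. The log2 differences were 1.37 ± 0.221 for RR9, 1.01 ± 0.200 for RR10 and 1.87 ± 0.251 for RR3 (SE, limma adjusted p = 0.00131, 0.00358 and 0.000529). They were -0.64 ± 0.0836 for RR4 and -1.48 ± 0.273 for RR1 (SE, limma adjusted p = 0.000448 and 0.00253). For RR1 and RR3, which are low in one tissue, the size depends on the value added before the logarithm: with 0.1 in place of 1 it was -2.92 and 2.63, and with 5 it was -0.53 and 0.88. RR1 averaged 0.334 ± 0.329 FPKM in control roots and 2.68 ± 0.302 FPKM in control leaves (SD, n = 2). RR2 was 0.27 ± 0.111 higher in roots (SE, limma adjusted p = 0.0639) and passed the threshold in a model of the control libraries alone (limma adjusted p = 0.0326). It also passed without root salt replicate 1 or 2 (limma adjusted p = 0.0176 in both) and with a term for the files that list the 185 further entries (limma adjusted p = 0.0436).

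Under salt, RR9 and RR10 were 2.17 ± 0.221 and 2.14 ± 0.200 higher in salt-treated roots than in salt-treated leaves (SE, limma adjusted p = 0.000116 and 7.64e-05). In mean FPKM these were ratios of 4.61 and 4.48, where the same ratios between control tissues were 2.70 and 2.05. RR3 was 1.87 ± 0.251 higher and RR2 0.76 ± 0.111 higher in roots, and RR1 was 1.14 ± 0.273 lower (SE, limma adjusted p = 0.000470, 0.000730 and 0.00771). RR4, lower in roots without salt, differed by 0.06 (95% interval -0.13 to 0.26, limma adjusted p = 0.509). Thus 4 of 7 were higher and 1 was lower, beside 47.7% and 24.5% of all tested genes (37.7% and 30.6% under quantile normalization). These counts include RR3 and RR1, which passed the filter on low values through the tissue where they are high. The difference of RR4 was -0.16 under 75th percentile scaling and -0.13 under quantile normalization, and gave no call in either (limma adjusted p = 0.153 and 0.185).

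The order of the levels differed between the groups. In salt-treated roots RR10 was highest and apart from the rest, RR2 and RR9 overlapped, and RR4, RR6, RR3 and RR1 followed without overlap. In control roots RR2 and RR10 overlapped at the top with RR9 just under them at 36 and 34.4 FPKM, then came RR4, and RR6 and RR3 overlapped below it. In salt-treated leaves RR2 led, followed by RR4 and RR10, and RR9 and RR6 overlapped. In control leaves RR2 led at 32.6 and 32.1 FPKM, RR4 and RR10 overlapped below it, and RR9, RR6 and RR1 followed. RR9 and RR10 together made up 60.7% and 57.5% of the family's summed FPKM in salt-treated roots, against 53% and 53.8% in control roots. They made up 26.4% and 35.2% in salt-treated leaves, against 34.6% and 31.3% in control leaves.

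**Figure D4:**
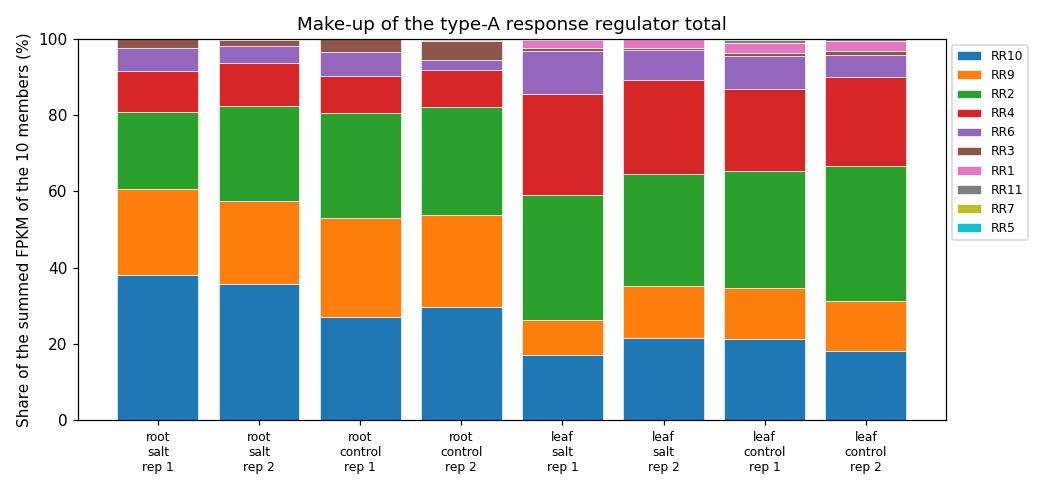
Share of the summed FPKM of the 10 members held by each (vertical axis, percent) in each of the 8 libraries. RR10 holds 38% and 35.8% in the salt-treated root libraries, above its 27.1% and 29.7% in control roots.

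Among the members, RR9 was the nearest to RR10 in pattern. Measured as the root mean square distance of log2(FPKM + 1), centred on each gene's mean over the 8 libraries, RR9 lay 0.247 from RR10, RR2 0.613, RR3 0.622, RR6 0.865, RR4 0.948 and RR1 1.52. Counting RR10 itself, 36 of all tested genes had a smaller distance from RR10 than RR9. Over all tested genes outside the family, LOC_Os02g44770 and LOC_Os07g03030 were nearest to RR10, each at 0.161. Both were far less abundant, with means of 2.76 and 3.34 FPKM against 48.8 FPKM for RR10. The 1 added before the logarithm shrinks the fold changes of such low genes, so a small distance does not mean equal fold changes. LOC_Os02g44770 had 8.32 and 7.71 FPKM in salt-treated roots, against 1.88 and 1.69 FPKM in control roots. For both genes the ratio of salt to control in roots was larger than that of RR10.

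The other parts of the pathway were read from lists of identifiers, whose counts stand beside the same shares of all tested genes: 29.1% rose and 14.4% fell in roots, and 14.8% rose and 18.9% fell in leaves. Of the 4 receptor histidine kinases, all were tested and all 4 rose in roots, while 2 rose and 2 gave no call in leaves. Under either other scaling 3 of the 4 rose in roots. HK5 (LOC_Os10g21810) averaged 38.1 ± 0.780 FPKM in salt-treated roots and 22.6 ± 1.55 FPKM in control roots, and 52.4 ± 1.16 FPKM in salt-treated leaves and 25.9 ± 0.413 FPKM in control leaves (SD, n = 2). It rose by 0.73 ± 0.0794 in roots and 0.99 ± 0.0794 in leaves (SE, limma adjusted p = 0.000664 and 0.000254). The kinase LOC_Os02g50480 rose by 0.69 in roots and differed by -0.06 in leaves, and these changes differed from each other (limma adjusted p = 0.0301), a call lost under 75th percentile scaling and quantile normalization (limma adjusted p = 0.0686 and 0.139). The median change of the kinase list was 0.58 in roots and 0.35 in leaves.

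Of the phosphotransfer proteins, which carry phosphate from receptor to regulator, AHP2 (LOC_Os09g39400) rose by 0.64 ± 0.121 in roots and 0.62 ± 0.121 in leaves (SE, limma adjusted p = 0.00592 and 0.00830). AHP1 (LOC_Os08g44350) fell in leaves by 0.55 on the log2 scale (limma adjusted p = 0.0149) and differed by 0.02 in roots. Among 5 type-B regulators tested of 6 listed, 2 rose and 3 gave no call in roots, and 2 rose and 3 gave no call in leaves, beside 29.1% and 14.8% of all tested genes that rose. Under either other scaling 1 rose and 1 fell in roots. RR23 (LOC_Os02g55320) rose by 0.62 in roots and 0.45 in leaves (limma adjusted p = 0.00926 and 0.0373). RR21 (LOC_Os03g12350) rose by 0.72 in leaves (limma adjusted p = 0.000731) and differed by 0.06 in roots, a difference between tissues of -0.66 (limma adjusted p = 0.00539). Median changes of the type-B list were 0.11 in roots (-0.06 under either other scaling) and 0.20 in leaves.

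The enzymes that make and destroy cytokinin moved in both directions. Of 22 synthesis genes listed 17 were tested, of which 7 rose and none fell in roots, and 3 rose and 5 fell in leaves, where 14.8% of all tested genes rose and 18.9% fell. Under either other scaling 7 rose and 4 fell in roots. LOGL9 (LOC_Os09g37540), of the family that releases active cytokinin from its nucleotide, averaged 8.66 ± 0.977 FPKM in salt-treated roots and 0.893 ± 0.242 FPKM in control roots (SD, n = 2), a rise of 2.35 ± 0.194 (SE, limma adjusted p = 0.000258). In leaves LOGL9 differed by -0.42 (limma adjusted p = 0.143). LOGL10 (LOC_Os10g33900) fell by 1.07 on the log2 scale in leaves (limma adjusted p = 0.00422). The list's median change was 0.16 in roots (0.02 under 75th percentile scaling and -0.05 under quantile normalization) and 0.00 in leaves.

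Of 11 cytokinin oxidases, which break the hormone down, 10 were found in the files and 7 were tested. In roots 3 rose and 2 fell (2 and 3 under either other scaling), and in leaves 1 rose and 2 fell, beside 29.1% and 14.4% of all tested genes in roots and 14.8% and 18.9% in leaves. CKX4 (LOC_Os01g71310) rose by 1.18 in roots and 1.25 in leaves (limma adjusted p = 0.00483 and 0.00482). CKX11 (LOC_Os08g35860), the most abundant oxidase in roots, averaged 113 ± 24.4 FPKM in salt-treated roots and 181 ± 6.23 FPKM in control roots (SD, n = 2), a fall of 0.69 on the log2 scale (limma adjusted p = 0.00773). In leaves CKX11 had 43.7 ± 0.205 FPKM with salt and 33.8 ± 0.978 FPKM in controls (SD, n = 2), and the changes of the 2 tissues differed by -1.06 (limma adjusted p = 0.00852). CKX1 (LOC_Os01g09260) rose in roots by 1.05 (limma adjusted p = 0.00263), with 14.1 ± 0.115 FPKM in salt-treated roots and 6.31 ± 0.673 FPKM in control roots, and had 0.162 ± 0.165 FPKM in salt-treated and 0.153 ± 0.144 FPKM in control leaves (SD, n = 2).

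**Figure D5:**
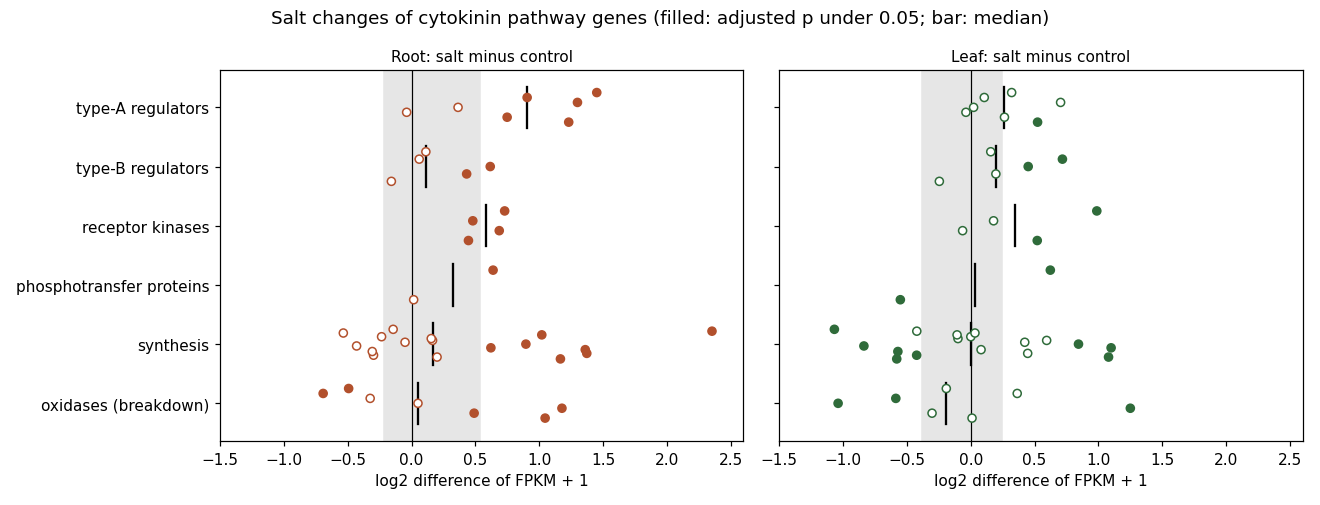
Log2 difference of FPKM + 1, salt minus control (horizontal axis), of the tested genes of 6 cytokinin lists in root and in leaf. Each point is a gene, filled where the limma adjusted p is under 0.05, black bars are list medians, and the grey band is the middle 50% of all tested genes. The median of the type-A regulators is 0.91 in root and 0.26 in leaf.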

How the data were processed

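The tools named in the submitters' processing notes are Cuffdiff, Cufflinks 2.2.1 and TopHat2 2.0.13. Per the file headers, the deposited values are FPKM per gene and library with lower and upper confidence bounds. The sources used here give no genome build, annotation or strandedness. Starts are printed 1-based. Of the genes on 12 chromosomes, 4 identifiers at several loci were left out. The 23776 genes that reached 1 FPKM in at least 2 of the 8 libraries entered limma 3.58.1 (R 4.3.3) on log2(FPKM + 1), with 4 group means, variances following the level, and Benjamini-Hochberg adjustment over all tested genes. "Rose", "fell" and "called" mean an adjusted p under 0.05. The fit was also run on simulated data, in which noise was equal in all groups and only genes well above the filter changed. That run checked the code and does not bear on low members or unequal spread. Fold changes on this scale understate those of low genes.

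Depth was taken from the bounds: the square of (2 × FPKM / distance to the upper bound) implies 9060000 to 10700000 fragments per library, and 664 to 1548 for RR2, 111 to 729 for RR10, 5 to 44.3 for RR3 and 1.7 to 73.3 for RR1. Intervals use a spread per gene estimated jointly over the 4 groups of 2 libraries and drawn towards that of genes at similar level. Nothing states whether the libraries came from separate plants.

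The members and lists were chosen with earlier results of these data known. All 10 members are named; other genes had to be called in at least 2 of the root change, the leaf change and their difference, at most 2 rising and 2 falling per list by the larger change. Pathway and marker lists came from general knowledge, and 27 names looked up in RefSeq (ASM3414082v1) each lay on the same chromosome as the identifier. Their locus lengths were 0.707 to 2.81 times those in RefSeq, and 0.815 to 1.043 times for those named above. For the 9 members found in RefSeq they were 0.639 (RR11) to 1.025 times (RR9). Alternatives were other pseudocounts, filters, scalings, variance models, groups fitted, a block for the replicate number, and each library left out. A term for files with further entries and the summed paralogues were added after the data were seen.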

Additional observations from a re-analysis of the deposited data

Results flagged for a closer look

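The salt response differed between root and leaf for RR4 by 0.71 on the log2 scale, root minus leaf, and for RR10 by 1.13, each past the threshold of the interaction test in limma. For RR4 the adjusted p stayed under the threshold with each library left out (0.0146 to 0.0250). For RR10 it ran from 0.0172 to 0.0714 over the same omissions.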

How the results depend on the processing

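Over 633 comparisons of a member's value with an alternative, 602 kept direction and side of the threshold or stayed uncalled, 19 lost a call, 12 gained one, and no called value changed sign. The total includes values uncalled throughout. The lost calls were those of RR6 in roots (9 of 18 alternatives), RR10 for the difference between tissues (6 of 18) and RR9 in roots (4 of 19). Members called in leaves numbered 2 in place of 1 with only the groups compared (RR2 added) and 2 with the replicate block (RR6 added), which changed no other count of members. Deviations of same-numbered libraries correlated by 0.21 between control and salt-treated roots, and by -0.02 to 0.07 over the other pairs of groups. These values do not settle whether the replicate number pairs the samples. RR6 was higher in the library numbered 1 in all 4 groups, and with the replicate block its leaf difference gave limma adjusted p = 0.0483 and its root rise 0.00514. Without a filter on low values the difference between tissues was called in 1 member in place of 2 (RR10 lost). With a pseudocount of 0.1, 9 upstream pathway genes in place of 14 were called for that difference. Of all tested genes 4830 were then called towards root and 1912 towards leaf, in place of 5496 and 2309. With 1 library left out, members called numbered 3 to 5 in roots, 1 to 2 in leaves and 1 to 3 for the difference, where 5, 1 and 2 were called with all libraries, and upstream pathway genes called numbered 11 to 20 in leaves and 9 to 14 for the difference, where 17 and 14 were called. The 11 came without leaf control replicate 1, and the 9 without leaf control replicate 1 or 2. The lone library of a group was then assumed to vary like the others. The cause of these shifts was not tested. RR1, RR3 and the 3 untested members rest on few fragments.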
